A study of Rattus norvegicus with 45 samples.

Results

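Complement transcripts were followed across the rat hippocampus: the 3 chains of C1q (C1qa, C1qb, C1qc), the protease C1s, the central component C3, the C1 inhibitor Serping1 and the membrane protein Cd59. These 7 genes were taken as every probe set whose symbol in the table of old animals, as printed or as updated through its gene identifier, was 1 of these names. Each gene had 1 probe set, so 7 of 31099 probe sets were members, and 7 of 13404 named genes. C1qc was printed under its older symbol C1qg, and Cd59 corresponds to the current symbol Cd59b. The probe set of C1s was also annotated to a C1s pseudogene, so its values are uncertain between the 2 loci. All members were called present on all arrays with a detection call, except Serping1, which was called absent in the dentate gyrus of 1 middle-aged and 1 restricted rat.

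Complement is a chain of plasma and tissue proteins that tag cells and debris for removal. In the classical pathway C1q, a bundle of A, B and C chains, binds its target and the attached proteases C1r and C1s are activated. They lead to the cleavage of C3, whose fragments coat the target, and Serping1 (C1 inhibitor, a serpin) shuts off C1r and C1s. Cd59 sits on the host cell surface and blocks the membrane attack complex. In the mouse brain, C1q comes mainly from microglia and has been linked to the marking of synapses.

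The data were 45 Affymetrix RAE 230 2.0 arrays of total RNA, 1 for each of the regions CA1, CA3 and dentate gyrus (DG) of 15 male F344xBN rats. CA1 and CA3 are fields of pyramidal neurons and DG is the field of granule neurons. All groups were the same hybrid strain, with no transgene or deleted gene in the labels. Each of 5 classes held 3 rats: middle-aged rats of 18 months fed ad libitum (ALMA), old rats of 28 months fed ad libitum and labelled good (ALO GP) or poor (ALO PP) performers, and old rats of 28 months under calorie restriction labelled good (CRO GP) or poor (CRO PP) performers. Restriction began at week 14 of age and reached 40% at week 17. No restricted middle-aged rats were analysed here, and no source used here names the behavioural test behind the performance label. The 3 arrays of a rat are not independent, so conditions were compared over rats, with 3 middle-aged, 6 old ad libitum and 6 restricted animals. The small number of arrays limits the precision throughout. For conditions, p-values judge a difference against the spread between these animals, and for regions against the spread within rats. Tests of whether a difference varies by region use all arrays, with the rat as a block.

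Values are dChip signals, a model-based probe set intensity in arbitrary units, in 1 table for age (27 arrays fed ad libitum) and 1 for diet (36 arrays of old rats). A separate value table covers all 45 arrays on its own scale. Differences are on the log2(signal + 16) scale with their standard error, and adjusted p-values come from limma with the Benjamini-Hochberg method over every probe set above the filter on low signal. A probe set is called here when its adjusted p is below 0.05. Levels of different genes are not compared, because probe sets differ in brightness.

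Several facts of the arrays touch the results. Between 58.9% and 67.42% of probe sets were present on each array. The spiked poly-A control DapX split the arrays into 3 sets: all 9 middle-aged arrays read 533.9 to 700.03, all old ad libitum arrays and 4 restricted CA1 or CA3 arrays read 147.5 to 283.15, and the other 14 restricted arrays read 0.5 to 12.61. Age and this set cannot be told apart, nor can diet and the set in DG. In CA3 and over the mean of the regions, diet and the set also largely went together. The authors' table marked 2 arrays of 1 poor-performing restricted rat as outliers, in CA1 and in CA3. Their 3'/5' ratios of Gapdh were 7.644 and 6.078, against 1.486 to 3.374 on the other arrays, and they are kept in the main values and left out where stated. Summed granule neuron markers read 1460 to 2753 on the DG arrays, 619 to 2036 in CA1 and 431.3 to 1147 in CA3, while summed CA1 pyramidal markers read 2296 to 4890 in CA1, 699.1 to 3797 in CA3 and 618 to 2065 in DG. Summed CA3 pyramidal markers read 3159 to 6787 in CA3, 2035 to 4711 in CA1 and 3164 to 4776 in DG. The ranges overlapped, but in the rats fed ad libitum all 3 granule markers tested were higher in DG than in either other field (limma). All 5 CA3 pyramidal markers tested were higher in CA3 than in CA1 in these rats (limma).

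The 3 C1q genes lie side by side on rat chromosome 5 of assembly GRCr8, within 17.7 kb: C1qb at chr5:154402276-154407827, C1qc at chr5:154410845-154414208 and C1qa at chr5:154417086-154419933. C1s lies at chr4:159116549-159128736, C3 at chr9:2174412-2201339, Serping1 at chr3:90249410-90259299 and Cd59 at chr3:110914008-110932489. RefSeq promoter windows of assembly GRCr8 ran from 250 bases before to 50 bases after the start. They were matched for 3 of the 7 members, C1qa, C1qb and C3, and are shown for these. No window was matched for the other members, so the choice does not follow the differences described next. The C1qa window is chr5:154419884-154420183, that of C1qb is chr5:154407778-154408077 and that of C3 is chr9:2201290-2201589, all on the minus strand. Capitals mark matches to any of 4 motifs searched on both strands.
C1qa promoter: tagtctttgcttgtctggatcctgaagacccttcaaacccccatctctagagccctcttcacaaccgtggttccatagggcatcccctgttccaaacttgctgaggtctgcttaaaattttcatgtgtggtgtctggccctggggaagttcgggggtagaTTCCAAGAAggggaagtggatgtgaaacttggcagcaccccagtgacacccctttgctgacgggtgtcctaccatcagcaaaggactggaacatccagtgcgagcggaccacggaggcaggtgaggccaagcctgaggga
C1qb promoter: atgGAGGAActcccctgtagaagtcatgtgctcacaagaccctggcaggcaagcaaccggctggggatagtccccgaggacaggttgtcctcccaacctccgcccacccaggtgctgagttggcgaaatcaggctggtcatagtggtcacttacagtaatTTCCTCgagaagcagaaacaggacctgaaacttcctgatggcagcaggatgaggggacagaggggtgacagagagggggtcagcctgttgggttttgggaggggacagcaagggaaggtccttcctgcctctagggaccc
C3 promoter: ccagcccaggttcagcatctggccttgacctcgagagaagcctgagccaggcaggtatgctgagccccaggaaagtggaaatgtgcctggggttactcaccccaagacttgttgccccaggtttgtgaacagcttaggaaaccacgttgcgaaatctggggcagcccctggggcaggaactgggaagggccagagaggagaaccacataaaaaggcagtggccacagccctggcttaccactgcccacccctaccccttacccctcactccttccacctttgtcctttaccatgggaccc
The motifs were GAGGAA, the core bound by the myeloid factor PU.1, TTCNNNGAA, the core bound by STAT factors, an interferon response core (GAAA, any 2 bases, GAAA), and a kappa B core (GGGA, any base, TTTCC). C1qa held 1 match, to TTCNNNGAA, at positions -90 to -82 from the start, and 8.87% of 33469 promoter windows held this motif. C1qb held GAGGAA at positions -247 to -242, and again on the other strand at -90 to -85, where 27.6% of all windows held at least 1. C3 held none of the 4, which says only that these letters are not in this window. The interferon core was in 3.92% and the kappa B core in 0.362% of all windows. No GAGGAA, interferon or kappa B match was found in C1qa, and no STAT, interferon or kappa B match in C1qb. A match is a description of letters, not of binding.

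The first question was whether complement transcripts differ between middle-aged and old rats fed ad libitum. In CA1, 4 of the 7 members rose with age (C1qa, C1s, C3 and Serping1), where 20.5% of all probe sets tested rose. In CA3 and in DG 1 member rose in each, Serping1 and C1qa, where 15.2% and 8.2% of all probe sets rose. Those last shares are near the members' own and are no result about the members. For the mean of the 3 regions of each rat, 4 members rose (C1qa, C1qc, C3 and Serping1), where 28.2% of probe sets rose. Those calls of C1qc and of C3 (0.72 ± 0.26, adjusted p = 0.0495) were each lost in 7 of 9 fits that left out 1 rat (adjusted p up to 0.135 and 0.186) and under 3 of 4 other settings. The members' median difference was 1.002 in CA1, 0.841 in CA3 and 0.788 in DG on the log2 scale, beside 0.065, 0.047 and 0.040 over all probe sets tested. In CA3 and DG the median is the value of C1qb, which was not called there. The members were chosen with earlier results of these data known, so this contrast is a description only. In this bulk tissue, more cells of a type and more RNA per cell cannot be told apart.

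C1qa, the A chain of C1q, read 2212, 2301 and 1927 in CA1 of the 3 middle-aged rats, and 3458 at the lowest, 3587 at the median and 9740 at the highest in the 6 old rats. All 6 old arrays were above all 3 middle-aged arrays, as were 21% of all probe sets. The difference in CA1 was 1.00 ± 0.30 (SE, adjusted p = 0.0307), a 2.00-fold rise. In DG the middle-aged rats read 1883, 2534 and 1736, and the old rats 2982, 3195 and 5777 at the lowest, median and highest. The groups again did not overlap, as for 13.3% of probe sets in DG, and C1qa rose by 0.83 ± 0.22 (adjusted p = 0.0413). In CA3 the middle-aged values of 1914, 2499 and 2066 also lay below the old range of 3016 to 8821, as for 17.7% of probe sets. There the difference of 0.90 ± 0.30 missed the threshold (adjusted p = 0.0596), and in the value table it passed, at 1.07 (adjusted p = 0.0367). Without filtering, the CA1 and DG calls of C1qa were lost.

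C1qb, the B chain, read 503.3, 496.4 and 434.8 in CA1 of the middle-aged rats, and 547.2, 816.6 and 3468 at the lowest, median and highest of the old rats. In CA3 the middle-aged rats read 444, 589.5 and 552.5, against 670.2, 814.9 and 2611 in the old rats. In DG they read 400.7, 547.9 and 495.7, against 605.2, 726.2 and 1665. The old arrays stood above the middle-aged arrays in all 3 regions, without overlap. The differences were 1.05 ± 0.46 in CA1 (adjusted p = 0.119), 0.84 in CA3 (adjusted p = 0.139) and 0.79 in DG (adjusted p = 0.114), so that C1qb was not called in any region by limma. In the value table the DG difference was 0.90 and passed (adjusted p = 0.0313).

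C1qc, the C chain, read 1235, 1295 and 1077 in CA1 of the middle-aged rats, and 1884, 2000 and 6194 at the lowest, median and highest of the old rats. In CA3 it read 957.5, 1262 and 1119 against 1526, 1777 and 5140. In DG it read 864, 1597 and 1020 against 1513, 1760 and 3979. Only in DG did the groups overlap, through the second middle-aged rat. C1qc differed by 0.99 ± 0.34 in CA1 (adjusted p = 0.0541), by 0.91 in CA3 (adjusted p = 0.0881) and by 0.82 in DG (adjusted p = 0.128), and none was called. Averaged over regions, the 3 chains differed by 0.91 ± 0.26 (C1qa, adjusted p = 0.0191), 0.89 ± 0.36 (C1qb, adjusted p = 0.0723) and 0.90 ± 0.32 (C1qc, adjusted p = 0.0451). The value table lost the call of C1qc over the mean, at 0.83 (adjusted p = 0.0912), while C1qb passed there, at 1.01 (adjusted p = 0.0249).

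The good-performing old ad libitum rat of replicate 1 was the highest of the 9 ad libitum rats in 15 of the 21 combinations of member and region. For C1qa its signal was 2.303 times that of the next highest ad libitum array in CA1, 2.235 times in CA3 and 1.405 times in DG. For C1qb these ratios were 3.3, 3.108 and 1.822, and for C1qc 2.886, 2.479 and 2.044. Leaving this rat out made the age differences of the chains smaller and their spread narrower. C1qa in CA1 then differed by 0.77 (adjusted p = 0.000463), C1qb by 0.69 (adjusted p = 0.0165) and C1qc by 0.72 (adjusted p = 0.000377). Without it C1qa, C1qb and C1qc also passed in CA3, at 0.675, 0.55 and 0.65 (adjusted p = 0.00573, 0.0104 and 0.00827). In DG C1qa and C1qb then differed by 0.70 and 0.59 (adjusted p = 0.0173 and 0.0285). C1qc differed there by 0.62 and still missed the threshold (adjusted p = 0.0597). Averaged over regions, C1qb differed by 0.61 without that rat and passed (adjusted p = 0.000392, from 0.000392 to 0.177 over alternatives). Over every alternative, the adjusted p for age in CA1 ran from 0.000463 to 0.105 for C1qa, from 0.0165 to 0.257 for C1qb and from 0.000377 to 0.156 for C1qc. In CA3 it ran from 0.00573 to 0.167 for C1qa, from 0.0104 to 0.316 for C1qb and from 0.00827 to 0.226 for C1qc. In DG it ran from 0.0173 to 0.164 for C1qa, from 0.0285 to 0.359 for C1qb and from 0.0597 to 0.4095 for C1qc.

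C1s, the protease of the C1 complex that cleaves the next components, changed little in size. Its CA1 signal was 918.2, 850.5 and 831.5 in the middle-aged rats and 912.3, 1115 and 1166 at the lowest, median and highest of the old rats. Only 1 old array lay inside the middle-aged range. C1s rose by 0.29 ± 0.089 (adjusted p = 0.0337), a 1.23-fold change, and the call was lost in the value table (0.31, adjusted p = 0.0647). In CA3 the middle-aged values of 946.9, 1030 and 970.3 lay within the old range of 905.7 to 1187, with a difference of 0.14 (adjusted p = 0.281). In DG 851, 1163 and 778.7 stood against 877.6 to 2333, with a difference of 0.35 (adjusted p = 0.509).

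C3, the component on which all complement pathways meet, read 1628, 1095 and 786.6 in CA1 of the middle-aged rats and 1716, 2117 and 4719 at the lowest, median and highest of the old rats. The groups did not overlap, and C3 rose 2.04-fold, by 1.03 ± 0.31 (adjusted p = 0.0339). In CA3 the middle-aged rats read 1588, 1784 and 1253, and the old rats 1258, 1982 and 4379. These groups overlapped and the difference was 0.48 (adjusted p = 0.325). In DG 1194, 1074 and 900.8 stood against 1110, 1450 and 2773, overlapping by 1 middle-aged array, with a difference of 0.65 (adjusted p = 0.172) that passed in the value table at 0.87 (adjusted p = 0.0471). Leaving out 1 animal in turn ended the CA1 call of C3 in 5 of 9 cases (adjusted p up to 0.149).

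Serping1, the inhibitor of C1r and C1s, had the largest age difference of the 7 members in CA1. It read 500.1, 297.5 and 248.4 in the middle-aged rats and 590.8, 1329 and 1454 at the lowest, median and highest of the old rats. The ranges did not overlap, and Serping1 rose 3.32-fold, by 1.73 ± 0.29 (adjusted p = 0.00222). In CA3 it read 526.4, 699.9 and 549.9 against 627.7, 1140 and 1777, where the lowest old array lay below the highest middle-aged one. It rose there by 0.95 ± 0.26 (adjusted p = 0.0320). In DG it read 235.4, 878 and 205 against 492.3, 574.3 and 3794, so that 1 middle-aged array exceeded 4 of the 6 old arrays. The DG difference of 1.27 ± 0.70 was not called (adjusted p = 0.294). No single animal left out ended the CA1 call (adjusted p up to 0.0138), whereas the CA3 call was lost in 6 of 9 cases (up to 0.105).

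Cd59 was not called with age in any region. It read 4337, 3807 and 3917 in CA1 of the middle-aged rats, and 4311, 4170, 4340, 4276, 4422 and 4136 in the old rats. The ranges overlapped, and the differences were 0.09 in CA1 (adjusted p = 0.279), -0.08 in CA3 (adjusted p = 0.286) and 0.13 in DG (adjusted p = 0.343). By the value table, Cd59 differed in CA3 by -0.22 (adjusted p = 0.146), with 1374 to 1460 in the middle-aged and 1080 to 1406 in the old rats, and by 0.07 in both CA1 and DG. A p above the threshold does not show equality.

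The second question was whether long-term restriction alters these transcripts in old rats. In CA1 and CA3 no member was called by limma, where 0.0215% and 8.38% of probe sets were, although 3 members in CA1 and 2 in CA3 had an unadjusted p under 0.05. Likewise 0 members were called in the value table. In DG 2 members fell, C1qb and C3, where 19.4% of all probe sets fell, and over the mean of the regions 4 fell (C1qb, C1s, C3 and Serping1), where 20.1% did and 32% changed in either direction. The DG share is near the background and is no result about the members as a group. The age and diet comparisons use the same old ad libitum arrays, so an extreme array among these moves both. The restricted CA1 arrays of good performers shared the DapX range of the old ad libitum arrays. Those 3 arrays against the 6 old ad libitum arrays (restricted minus ad libitum) gave differences of -0.91 for C3 (adjusted p = 0.119), -0.77 for Serping1 (adjusted p = 0.186), -0.66 for C1qb (adjusted p = 0.447), -0.51 for C1qc (adjusted p = 0.412), -0.45 for C1qa (adjusted p = 0.397), -0.28 for C1s (adjusted p = 0.150) and -0.09 for Cd59 (adjusted p = 0.363).

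C1qb in DG read 653.7, 790.1 and 1801 at the lowest, median and highest of the 6 old ad libitum rats and 458.4, 618.7 and 654.6 in the 6 restricted rats. The ranges met at 1 array, and C1qb fell by 0.62 ± 0.21 on the log2 scale (adjusted p = 0.0386), with -0.58 in the value table (adjusted p = 0.0188). In CA3 it read 729.4, 885.4 and 2739 against 363.4, 593.1 and 660.2. All 6 restricted arrays there lay below all 6 others, as did those of 3.29% of probe sets, yet the difference of -0.87 ± 0.28 missed the threshold (adjusted p = 0.0699). In CA1 the groups of 609.1 to 3546 and 288.5 to 865.5 overlapped (-0.78, adjusted p = 0.224). The lowest restricted values in CA1 and CA3 came from the 2 arrays marked by the authors. Over the mean of the regions C1qb fell by 0.76 ± 0.26 (adjusted p = 0.0448), and without the animal of those arrays the difference was -0.66 (adjusted p = 0.0735). The adjusted p ran from 0.0113 to 0.0802 over all alternatives.

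The other C1q chains did not pass. C1qa in DG read 3174, 3377 and 5736 at the lowest, median and highest of the old ad libitum rats and 2508, 2992 and 3467 in the restricted rats, a difference of -0.34 (adjusted p = 0.0861). C1qc in DG read 1660, 1894 and 4073 against 1465, 1874 and 2201, a difference of -0.24 (adjusted p = 0.357). Both pairs of ranges overlapped. Over the mean of the regions C1qa differed by -0.32 ± 0.17 (adjusted p = 0.150) and C1qc by -0.31 (adjusted p = 0.262). Without the good-performing ad libitum rat of replicate 1 the C1qa difference was -0.14 and passed (adjusted p = 0.0292, the range over alternatives being 0.0292 to 0.219), and that of C1qc was -0.09 (adjusted p = 0.198).

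C3 in DG read 2981, 1218 and 1521 in the good and 2488, 1667 and 1523 in the poor performers fed ad libitum. The restricted good performers read 1739, 975.5 and 1027, and the restricted poor performers 730.1, 1175 and 997. All restricted arrays but 1 lay below the lowest ad libitum array. C3 fell there by 0.75 ± 0.24 (adjusted p = 0.0310), a call lost in the value table (-0.46, adjusted p = 0.0902). In CA1 the ranges were 1840 to 4828 and 1121 to 1983, with a difference of -0.78 ± 0.21 (adjusted p = 0.0891), and in CA3 1359 to 4510 and 1506 to 1962, with -0.41 (adjusted p = 0.276). As the mean of each rat's regions, C3 fell by 0.65 ± 0.18 (adjusted p = 0.0178), and leaving out any animal kept the call (adjusted p up to 0.0427).

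Serping1 in CA1 read 636.2, 1456 and 1570 at the lowest, median and highest of the ad libitum rats and 415, 760.8 and 937.6 in the restricted rats. Only 1 ad libitum array fell inside the restricted range, and the difference of -0.85 ± 0.25 had an adjusted p of 0.0967. In CA3 the ranges of 682.1 to 1942 and 621.2 to 1463 overlapped widely (-0.34, adjusted p = 0.412). In DG the medians were 627.1 and 627.2, with ranges of 554 to 4035 and 193.3 to 1068, and the mean difference of -0.86 ± 0.55 was not called (adjusted p = 0.246). Without the ad libitum rat at 4035 the DG difference was -0.45 (adjusted p = 0.458, from 0.184 to 0.458 over alternatives). Averaged over regions, Serping1 fell by 0.68 ± 0.21 (adjusted p = 0.0274). The call was lost without the ad libitum poor performer of replicate 2, the restricted good performer of replicate 3 or the restricted poor performer of replicate 1 (adjusted p up to 0.0616).

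C1s in CA1 read 1005, 1214 and 1273 at the lowest, median and highest of the ad libitum rats and 864.2, 957.4 and 1010 in the restricted rats. The ranges met at 1 array, with a difference of -0.29 ± 0.074 (adjusted p = 0.0812). In CA3 and DG the differences were -0.29 (adjusted p = 0.0741) and -0.49 (adjusted p = 0.0988). Over the mean of the regions C1s fell by 0.36 ± 0.086 (adjusted p = 0.00890), and the call held in every alternative (adjusted p from 0.00517 to 0.0232). None of those alternatives separates diet from the DapX set. Cd59 differed by -0.01, 0.01 and -0.08 in CA1, CA3 and DG in the dChip tables (adjusted p = 0.959, 0.907 and 0.314). In the value table Cd59 fell in DG by 0.33 ± 0.088 (adjusted p = 0.0184) and over the mean by 0.19 ± 0.046 (adjusted p = 0.00849), so its diet result depends on the table used.

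**Figure D1:**
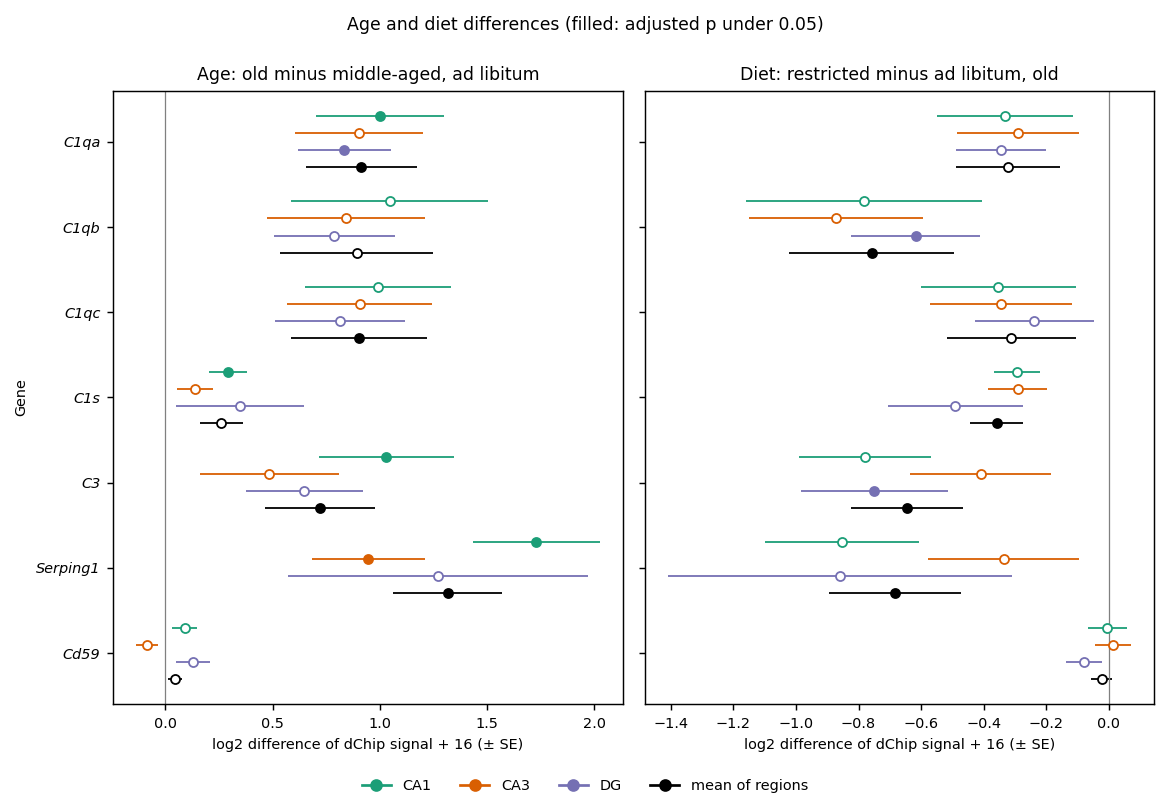
Age differences (old minus middle-aged, ad libitum) and diet differences (restricted minus ad libitum, old rats) of the 7 members in each region and for the mean of the regions, in log2(signal + 16) units of the dChip tables. Points are limma estimates, bars are their standard errors and filled points passed an adjusted p of 0.05. Serping1 in CA1 has the largest age difference (1.73), and every filled diet point lies below 0.

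Restricted old rats were also compared with middle-aged rats in the value table, the only table that holds both. These comparisons share the middle-aged arrays with the age comparison and the restricted arrays with the diet comparison, and here age, diet and DapX set cannot be told apart. C1qa was higher in the restricted old rats in all 3 regions, where 3.64% of probe sets were higher in CA1, 6.67% in CA3 and 18% in DG. In CA3 C1qa read 448.4, 491 and 603.4 at the lowest, median and highest of the middle-aged rats and 793.2, 807.3 and 828.4 in the restricted rats. These arrays did not overlap, and the difference was 0.65 ± 0.10 (adjusted p = 0.00351). C1qa differed by 0.76 ± 0.18 in CA1 (adjusted p = 0.0389) and by 0.59 ± 0.13 in DG (adjusted p = 0.00568), also without overlap. The CA1 call was lost in 6 of 9 fits that left out 1 rat (adjusted p up to 0.193) and without the filter, while those in CA3 and DG held in every alternative. Non-overlap upward held for 10.3% of probe sets in CA1, 10.6% in CA3 and 17.2% in DG.

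C3 was higher in DG of the restricted rats, at 187.9 to 315 against 150.4 to 175.8 in the middle-aged rats, by 0.41 ± 0.14 (adjusted p = 0.0487). This call was lost in 6 of 9 fits that left out 1 rat (adjusted p up to 0.144) and in each of 3 other settings. Cd59 fell in DG, at 949.8 to 1107 against 1169 to 1319, by 0.26 ± 0.075 (adjusted p = 0.0231), beside 11.9% of probe sets that fell. Neither pair of ranges overlapped, and downward non-overlap held for 12.8% of probe sets in DG. The Cd59 call in DG was lost in 2 of 9 fits that left out 1 rat (adjusted p up to 0.102) and under quantile normalisation. In CA3 Cd59 was also lower without overlap, at 979.8 to 1254 against 1374 to 1460, as 8.23% of probe sets were. That difference of -0.32 was not called (adjusted p = 0.0749). C1qb, C1qc, Serping1 and C1s were not called in any region. Of these, Serping1 had differences of 0.55 to 0.74, C1qc of 0.29 to 0.44 and C1qb of 0.10 to 0.31, while C1s lay between -0.14 and -0.04.

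Averaged over its 3 regions (geometric mean of value-table signals), each rat gave 1 value per gene. C1qa was 480.7 ± 66.5 (SD, n = 3) in the middle-aged rats, 748.3 ± 26.5 and 787.8 ± 43.4 in the restricted good and poor performers, 899.1 ± 32.1 in the old ad libitum poor performers and 1325 ± 795 in the old ad libitum good performers. All middle-aged rats (up to 555.9) lay below all restricted rats (728.3 to 835.4), and these below all old ad libitum rats (865.8 and above), as for 0.252% of probe sets in this table and for no other member. The classes within the restricted and within the old ad libitum rats overlapped or differed by less than their spread. The diet difference of C1qa over the mean was not called by limma in the dChip table, as given above. Nor was it called in the value table (-0.42, adjusted p = 0.1135).

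C1qb was 101.6 ± 16.5 in the middle-aged, 115.8 ± 32.9 and 130 ± 6.43 in the restricted poor and good performers, and 179 ± 16.7 and 307.3 ± 208.7 in the old ad libitum poor and good performers. Neighbours in this order among the middle-aged and restricted classes did not differ beyond their spread. The ad libitum poor performers stood above the restricted good performers by more than their SDs. C1qc ran in the order 243.4 ± 47.5, 312.2 ± 9.22, 322.3 ± 40.3, 374.1 ± 11.2 and 640.9 ± 534.6 through the middle-aged, restricted good, restricted poor, ad libitum poor and ad libitum good classes. C3 was 202 ± 33.3 in the middle-aged, 256.2 ± 36.4 and 256.3 ± 21.2 in the restricted poor and good, and 347.5 ± 58.7 and 500.5 ± 315.9 in the ad libitum poor and good classes. Both genes had the middle-aged class lowest and the ad libitum good performers highest, the latter with the widest spread.

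Serping1 was 108.6 ± 36.5 in the middle-aged, 185.4 ± 82.4 and 182.9 ± 41.9 in the restricted poor and good, and 246 ± 54.4 and 318.9 ± 126.9 in the ad libitum poor and good classes. C1s had another order, with the restricted classes lowest at 187.3 ± 16.4 and 195.9 ± 21 (poor and good), the middle-aged at 205.7 ± 21.9, and the ad libitum poor and good classes at 243.3 ± 15.9 and 254.8 ± 43. Cd59 was lowest in the restricted classes too, at 1076 ± 29.4 and 1099 ± 59.8, and 1247 ± 45.4, 1249 ± 84.4 and 1269 ± 33.3 in the ad libitum poor, ad libitum good and middle-aged classes. These class orders are descriptions, since the tests above use the same arrays. When the 15 groups of class and region were ordered, none of the 14 neighbouring pairs differed beyond their SDs for any member but C3. For C3 that pair was DG of the middle-aged rats, at 160.3 ± 13.6, below CA1 of the restricted good performers, at 197.4 ± 23.2. Ordering by level places the closest groups side by side, so this says nothing about groups further apart.

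**Figure D2:**
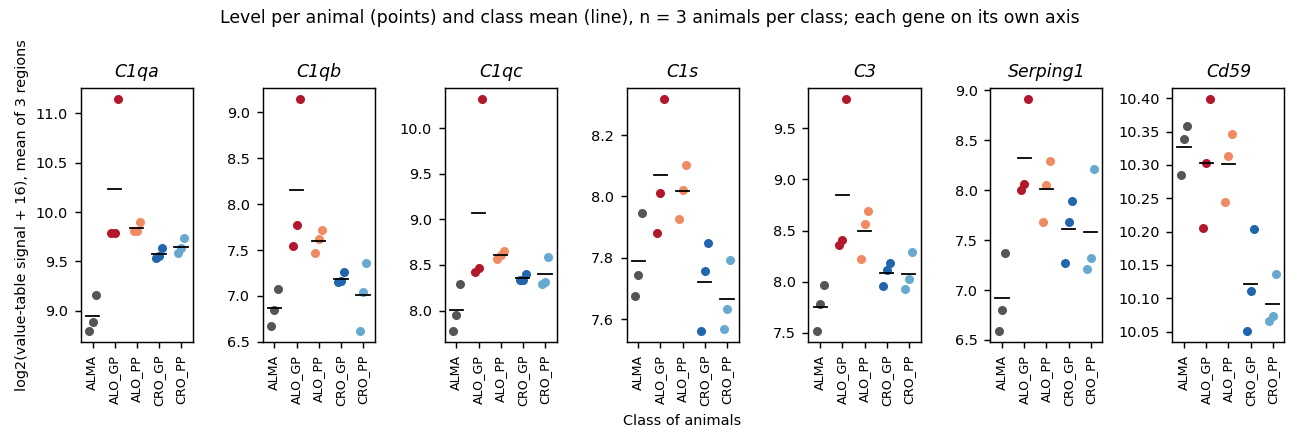
Value-table signal of each member per rat, as the geometric mean of its 3 regions (log axis, arbitrary units), for the 5 classes. Each point is 1 rat. For C1qa the middle-aged rats (429.6 to 555.9), restricted rats (728.3 to 835.4) and old ad libitum rats (865.8 to 2244) form 3 bands that do not overlap, as for 0.252% of probe sets.

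Good and poor performers among the old rats were compared within each region. No member was called in any region, where 0% of probe sets were, and 0 members had an unadjusted p under 0.05 or a call in the value table. Over all probe sets 3032, 720 and 2028 had an unadjusted p under 0.05 in CA1, CA3 and DG. The members' differences ran from -0.465 to 0.0851 in CA1, -0.446 to 0.0345 in CA3 and -0.245 to 0.0101 in DG, poor minus good. The lowest adjusted p of a member was 0.447 in CA1, 0.943 in CA3 and 0.697 in DG (limma). Tests of whether the age or diet difference itself varied also gave no member: the lowest adjusted p was 0.999 for age by region, 0.641 for diet by region and 0.642 for diet by performance, with 1, 0 and 0 members at an unadjusted p under 0.05. The calls in CA1 and not elsewhere therefore do not show that the age difference is particular to CA1. Over all probe sets 0.0215%, 0.0268% and 0% were called in these 3 tests.

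Between regions of the same rats, only C3 was called. Over all probe sets, 22.3% differed between CA3 and CA1, 16.5% between DG and CA1 and 36% between DG and CA3 in the rats fed ad libitum, and 26.8%, 27.9% and 16.9% in the restricted rats. In the 9 rats fed ad libitum C3 was lower in DG than in CA3 by 0.42 ± 0.15 (adjusted p = 0.0313), where 16% of probe sets were lower, and the call was lost in 8 of 9 fits that left out 1 rat (adjusted p up to 0.0898). In the 6 restricted rats it was lower in DG than in CA3 by 0.68 ± 0.14 (adjusted p = 0.00669), where 6.63% were lower, and than in CA1 by 0.41 ± 0.14 (adjusted p = 0.0484), where 15.6% were. Restricted C3 signals in DG were 730.1 to 1739, against 1506 to 1962 in CA3 and 1121 to 1983 in CA1. The difference from CA3 in the restricted rats held in every alternative (adjusted p from 0.00315 to 0.0436), and the difference from CA1 was lost in the value table (-0.12, adjusted p = 0.619). In the ad libitum rats the difference from CA1 was -0.35 (adjusted p = 0.123), and -0.47 in the value table (adjusted p = 0.0410).

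Serping1 in DG is set here beside markers of the meninges, the membranes over the brain. In the value table the good-performing ad libitum rat of replicate 1 read 1004 for Serping1 and 8005 for the summed signal of the meninges and fibroblast list. The next values of Serping1 were 349.5, 296.5, 267.9, 238.2 and 224.8, with meninges sums of 640.3, 2538, 2465, 758.6 and 2401. The other 9 rats read 56.46 to 155.1, with sums of 428.6 to 997.2. The 4 rats with sums above 2000 were thus all among the 6 highest for Serping1, as 2 rats with low sums were. Other lists were high on the same 4 arrays: endothelial and mural markers summed to 3546 to 8064 there and to 1635 to 2774 on the other 11 DG arrays, and perivascular macrophage markers to 177.8 to 695.8 and 88.33 to 165.9. In CA1 the meninges sums were 549.2 to 986.1 and in CA3 682.1 to 1758. Of the 9 list genes tested, 1 rose with age in CA1 and none in CA3, in DG or over the mean, and none fell with diet. The part of these cell types in the DG values of Serping1 was not tested.

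**Figure D3:**
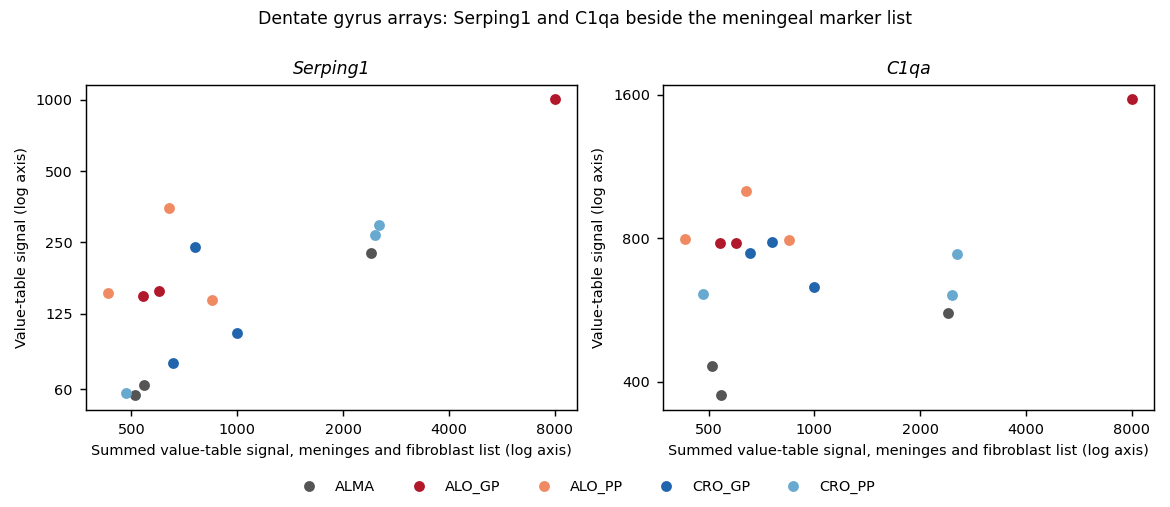
Value-table signal of Serping1 against the summed signal of meninges and fibroblast markers on the 15 DG arrays (both log axes, arbitrary units). Each point is 1 rat. One old ad libitum rat lies far from the rest in both (1004 and 8005), and 3 further rats have sums of 2401 to 2538.

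Microglia, the main source of C1q in the mouse brain, were followed by a list of markers. Of 17 microglia markers tested, 8 rose with age in CA1, 5 in CA3, 3 in DG and 10 over the mean, with a median of 0.691 in CA1, where 20.5%, 15.2%, 8.2% and 28.2% of all probe sets rose. Trem2, a microglial lipid receptor, rose by 1.00 ± 0.077 in CA1 (adjusted p = 0.000018), its partner Tyrobp by 1.31 ± 0.25 (adjusted p = 0.00384) and the growth factor receptor Csf1r by 0.69 ± 0.12 (adjusted p = 0.00272). The chemokine receptor Cx3cr1, another microglial marker, differed by 0.21 (adjusted p = 0.441). With diet 0, 3 and 7 of the 17 fell in CA1, CA3 and DG and 10 over the mean (median -0.502). Over all probe sets 0.0107%, 5.44%, 19.4% and 20.1% fell in CA1, CA3, DG and over the mean. The count of 0 in CA1 is near its share and is no result about the markers. Among the markers that fell was Trem2, at -0.58 ± 0.14 in DG (adjusted p = 0.0103). The summed signal of the list was 4626 to 5956 in the middle-aged, 4385 to 9443 in the old ad libitum and 4326 to 6768 in the restricted arrays. The defining markers Itgam and Cd68 were present on 16 and 27 of 45 arrays. The part of microglial number in the C1q values was not tested.

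Lists of other cell types gave the following counts, read against the same shares of 20.5% for age in CA1, 28.2% for age over the mean and 20.1% for a fall with diet over the mean. A fall with age over the mean was called for 11.8% of probe sets, and a rise with diet over the mean for 11.8%. The endothelial and mural share for age in CA1 is near background. With age in CA1, 6 of 11 astrocyte, 2 of 5 perivascular macrophage and 2 of 9 endothelial and mural markers rose, and none of 10 oligodendrocyte, 3 choroid plexus, 2 blood, 3 CA1 pyramidal, 5 CA3 pyramidal or 3 granule neuron markers did. Over the mean of the regions 7 astrocyte, 2 oligodendrocyte, 1 CA1 pyramidal and 1 granule neuron marker rose and 1 CA3 pyramidal marker fell. With diet over the mean, 1 marker each of perivascular macrophages, astrocytes, oligodendrocytes, endothelial and mural cells and CA1 pyramidal cells fell, and 1 choroid plexus and 1 CA3 pyramidal marker rose. Counts of 1 or 2 markers over the mean are too few to set apart from these shares and are no result about those cell types. The blood list summed to 1919, 1727 and 3505 in CA1, CA3 and DG of the good-performing ad libitum rat of replicate 1, and the choroid plexus marker Kl was present on 0 of 45 arrays.

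The rest of the complement system was described from a list of further genes, of which 24 passed the filter on low signal. With age in CA1 7 of the 24 rose and none fell, and in CA3 7 rose and none fell, beside 20.5% and 15.2% of all probe sets. In DG only the chaperone and lytic pathway inhibitor Clu rose, by 0.38 (adjusted p = 0.0113). Masp1, a protease of the lectin pathway, rose by 0.47 ± 0.12 in CA1 (adjusted p = 0.0181) and by 0.57 in CA3 (adjusted p = 0.00466). Itgb2, the beta chain of complement receptors on microglia, rose by 1.15 ± 0.23 in CA1 (adjusted p = 0.00459) and by 0.81 in CA3 (adjusted p = 0.0327). The calreticulin gene Calr, whose protein binds C1q, rose by 0.40 in CA1 (adjusted p = 0.00337) and by 0.29 in CA3 (adjusted p = 0.0214). Clu rose by 0.39 in CA1 (adjusted p = 0.0208) and by 0.32 in CA3 (adjusted p = 0.0180).

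Among regulators with complement control domains, Susd4 rose by 0.27 in CA1 (adjusted p = 0.0198) and by 0.30 in CA3 (adjusted p = 0.0430). Sez6 rose by 0.42 and 0.41 in the same regions (adjusted p = 0.0312 and 0.00590). Its relative Sez6l2 rose by 0.29 in CA3 (adjusted p = 0.0218). Sez6l also passed in CA1 (adjusted p = 0.00661), but it was called present on 5 of 45 arrays, so no size is given. Under restriction Masp1 fell by 0.50 in CA3 (adjusted p = 0.00921) and by 0.37 in DG (adjusted p = 0.0165). In DG Itgb2 fell by 0.69 (adjusted p = 0.0337), and Cd55, which speeds the decay of C3 convertases, fell by 0.46 (adjusted p = 0.00950). Susd4 rose with restriction by 0.29 in CA3 (adjusted p = 0.0304) and by 0.28 in DG (adjusted p = 0.00914), and Sez6l2 by 0.32 in DG (adjusted p = 0.0267).

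C1r, the partner protease of C1s, C4a/C4b, the next substrate, and the C3 convertase genes C2 and Cfb were tested and not called for age or diet in any single region. In the restricted old against the middle-aged rats C4a/C4b was higher in CA3, by 0.89 (adjusted p = 0.0164). The terminal component genes C5, C6, C8a, C8b and C9, the receptor C3ar1 and the inhibitors Cfi and Cd46 lay under the filter on low signal. No change is therefore given for them here, although C3ar1 was called present on 41 of 45 arrays and C8b on 28.

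The transcripts most like the members across the 45 arrays were found by Pearson's correlation of log2 value-table signal over 9902 genes. The points share animals and the extreme rat, so these values are descriptions. For the mean of the C1q chains they were Fcgr2b (0.935), Tmem176a (0.928), Ly86 (0.918) and Lgals3bp (0.909), of which Fcgr2b and Ly86 are in the microglia list. Over the 15 group means the same 4 gave 0.954, 0.975, 0.945 and 0.894, and over the 42 arrays without the extreme rat 0.87, 0.87, 0.801 and 0.746. For Serping1 they were Gpnmb (0.91), Ifitm3 (0.857), Cp (0.856) and Tcn2 (0.853), with 0.948, 0.858, 0.913 and 0.878 over group means and 0.902, 0.838, 0.839 and 0.826 without that rat. For C3 they were the class II antigen presentation genes RT1-Bb (0.936), RT1-Da (0.935) and RT1-Db1 (0.933), and LOC498279 (0.915), with 0.947, 0.955, 0.957 and 0.933 over group means and 0.917, 0.904, 0.913 and 0.85 without that rat. Gpnmb is a glycoprotein of phagocytes, and class II molecules present peptides to T cells.

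Among the members C1qa and C1qc were most alike (0.932, and 0.868 without that rat). C1qa and C1qb gave 0.859 (0.66 without it), C1qa and C3 0.871 (0.733), C1s and Serping1 0.769 (0.71) and C3 and Serping1 0.701 (0.776). Cd59 stood apart, at 0.064 to 0.401 with the others.

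The authors' deposited table of changed genes, selected on an unadjusted p, listed some members. In the authors' deposited table for age over all regions C1qa was 1.889-fold higher (p = 1.81e-05), C1qb 1.88-fold (p = 0.0009091), C1qc 1.883-fold (p = 0.0001862) and Serping1 2.553-fold (p = 0.0001996). For age in CA1 the authors' deposited table held Serping1 alone of the members, at 3.431-fold higher (p = 0.0003783). For restriction over all regions the authors' deposited table gave C1s as 1.303-fold lower (p = 0.0001559), C3 as 1.581-fold lower (p = 0.0004172) and C1qb as 1.586-fold lower (p = 0.0007267). Cd59 was in none of the lists.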

How the data were processed

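Total RNA was extracted with Trizol and hybridised to 1 array per region and animal, per the labels. The deposited dChip intensity values are model-based signals that the authors computed, in 1 table for the rats fed ad libitum and 1 for the old rats, with version and settings not given in the sources used here. For all 45 arrays the value table of intensity was deposited with a trimmed-mean scale, per the labels. No label names its software. Detection calls and the authors' lists of fold changes with p-values were used as deposited. The labels' note on normalisation (age arrays per region, diet arrays together) is the reverse of how the deposited tables are laid out.

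From these, log2(signal + 16) was fitted with limma 3.58.1 in R 4.3.3 (lmFit and eBayes), per region or over the mean of a rat's regions, after probe sets averaging below the table's 40th percentile were dropped. Regions were compared within rats with the rat as a block. Adjusted p-values cover all probe sets tested. Fits were checked on simulated data. Values were tabulated with Python 3.11.15, pandas 2.3.3 and numpy 2.4.6, and drawn with matplotlib 3.10.9.

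The members, the other complement genes and the marker lists were chosen with earlier results of these data known. The genes named are every member, the other listed complement genes past the threshold, and the 4 genes of highest correlation with the C1q mean, Serping1 and C3. Of the other listed complement genes, 1 is counted but not reported here. Groups came from sample titles. For 1 restricted DG array the title says good performer and the description code says poor, and the title was used. A pair of middle-aged CA3 arrays carries the same code and was taken as separate animals. Replicate numbers did not pair animals: the mean correlation of deviations was -0.007 over 25 same-numbered pairs in the age table and -0.009 over 50 in the diet table, against 0.006 and 0.007 for other pairs. Alternatives were the value table, no filter, a pseudocount of 1, quantile normalisation, a replicate block, 3 separate classes or tables by region, and leaving out each animal.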

Additional observations from a re-analysis of the deposited data

Results flagged for a closer look

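Among 42 groups of 6 old arrays (7 members, 3 regions, both diets, dChip diet table), 11 had a highest or lowest array set apart from the rest by Dixon's test at its 95% level. Chance gives about 1 group in 20 at that level. The groups share rats and correlated members, so the count cannot be read against that rate. In 8 of the 11 groups the array was that of the good-performing ad libitum rat of replicate 1. Its C1qa signals of 9256 in CA1 and 8389 in CA3 stood far above the other ad libitum arrays, as did its C1qb signals of 3546 in CA1 and 2739 in CA3. The same rat was apart for C1qc, at 6071 in CA1, 5030 in CA3 and 4073 in DG, and for C3 in CA1, at 4828.

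The other 3 were low values. C1qb read 288.5 in CA1 and 363.4 in CA3 on the 2 restricted poor-performer arrays that the authors marked as outliers, each the lowest of its group. Serping1 read 636.2 in CA1 of the poor-performing ad libitum rat of replicate 1, the lowest of its group. On the marked arrays the log2 difference of C1qb from C1qa was -3.406 to -3.045, against -2.816 to -1.68 on the other 43 arrays, while that of C1qc from C1qa (-1.444 to -1.265) lay within the others' range of -1.603 to -0.706. Their BioB control signals were 176.37 and 147.03, against 26.42 to 87.81 on the others. The part of these features in the C1qb values was not tested.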

How the results depend on the processing

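Of 24 member differences called, 7 kept their call under every alternative run, 17 lost it when some animal was left out and 14 under some other setting. Leaving out 1 animal ended the age call of C1qa in DG in 8 of 9 cases, those of C1qc and C3 over the mean in 7 of 9 each and those of C1s in CA1 and Serping1 in CA3 in 6 of 9 each. It ended the diet call of C1qb over the mean in 10 of 12 cases and those of C1qb and C3 in DG in 6 of 12 each, and the region calls of C3 in 8 of 9 (DG against CA3, ad libitum) and 5 of 6 (DG against CA1, restricted). With the replicate block, which changed no other member's call, age gave 0.29 for C1s in CA1 (adjusted p = 0.0529) and 0.86 for Serping1 in CA3 (adjusted p = 0.0848), and diet -0.87 for C1qb in CA3 (adjusted p = 0.0407, from 0.0365 to 0.125 over its alternatives). Among the age and diet differences and the other called ones, the only member to change direction was Cd59: with age over the mean it was -0.0254 in the value table. With diet in CA1 Cd59 was 0.0279 under quantile normalisation, 0.0108 in the table of that region and -0.0405 to 0.0320 with 1 animal left out, where 3 of the 12 cases were above 0 (the ad libitum poor performer of replicate 2 and the restricted good performers of replicates 2 and 3). With diet in CA3 Cd59 was -0.0998 in the value table and -0.0074 to 0.0501 with 1 animal left out, below 0 without either of the same restricted good performers. The cause was not tested.

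Counts of probe sets called moved by over 1.5 times in these settings. In the value table they were 3380 for age in CA1 (main 5169), 1234 for age in DG (1919), 39 for diet in CA1 (4), 3831 for diet in DG (5907), 2701 for CA3 against CA1 ad libitum (4154), and 0 for age by region (4) and diet by region (5). With no filter they were 2 for diet in CA1, 852 for diet in CA3 (1561) and 8 for diet by region. Quantile normalisation gave 95 for diet in CA1 and 1 for performance in CA1 (0), and the replicate block 2 for diet in CA1. Leaving out 1 animal gave 3429 to 5319 for age in CA1, 2332 to 4302 in CA3 and 700 to 2256 in DG, 0 to 258 for diet in CA1 and 654 to 4856 in CA3, 0 to 1 and 0 to 2 for performance in CA1 and DG, 3 to 52 for age by region, 0 to 493 for diet by region and 0 to 3 for diet by performance. For the restricted rats it gave 2452 to 7676 for CA3 against CA1, 2901 to 6031 for DG against CA1, 1741 to 4618 for DG against CA3, and 132 to 1933 in CA1 and 591 to 4119 in CA3 against middle-aged rats.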

Other observations

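Averaged over regions, 9 of 24 further complement genes were called for diet, where 32% of all probe sets were, so the count is near background. Among those that fell were Masp1 by 0.39 ± 0.041 (adjusted p = 0.000193), Itgb2 by 0.62 ± 0.17 (adjusted p = 0.0169), Pros1 by 0.49 ± 0.14 (adjusted p = 0.0217), the scavenger receptor gene Colec12 by 0.44 ± 0.15 (adjusted p = 0.0448) and Cd93 by 0.43 ± 0.15 (adjusted p = 0.0492). Those that rose were Susd4 by 0.21 ± 0.043 (adjusted p = 0.00427), Sez6l2 by 0.19 ± 0.046 (adjusted p = 0.0106) and Cfp, the properdin gene of the alternative pathway, by 0.53 ± 0.19 (adjusted p = 0.0482). In the value table Itgb2, Colec12, Cd93 and Cfp did not pass (limma).

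Averaged over regions, 8 of the 24 passed as higher with age, where 28.2% of all probe sets did, so this count too is near background: Masp1, Itgb2, Calr, Clu, Susd4, Sez6, Sez6l2 and Sez6l, the last called present on 5 of 45 arrays. The largest difference was that of Itgb2, at 0.91 ± 0.21 (adjusted p = 0.00730), followed by Masp1 at 0.46 ± 0.075 (adjusted p = 0.00101). Of the members without the good-performing ad libitum rat of replicate 1, C1s then passed for age over the mean at 0.19 (adjusted p = 0.0192, from 0.0192 to 0.212 over its alternatives).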
